A study of Mus musculus with 8 samples.

Results

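The genes described here were the 8 that encode the enzymes of serine synthesis and of the folate cycle around serine, namely Phgdh, Psat1, Psph, Shmt1, Shmt2, Mthfd1, Mthfd1l and Mthfd2. They were chosen by symbol, and all probes whose accession mapped to 1 of these symbols were taken. They had 13 probes and were 8 of the 18749 genes with a probe. All 8 were among the 14137 genes tested, and all 8 were well above background on all 8 arrays. The RNA was that of whole No. 4 mammary glands from female mice of the C57/Bl6 background at lactation day 1, 4 of them wild type (WT) and 4 lacking Th-POK (KO). Each dam was measured on its own 1-colour Agilent array. Th-POK is the zinc finger transcription factor encoded by Zbtb7b and is best known for directing immature T cells to the helper lineage. The mice were obtained as Th-POK knockouts and fed standard chow, females were matched for age, and no promoter or Cre that would restrict the loss to a cell type is named in the sources used here. In bulk tissue, fewer cells of a type and less RNA per cell cannot be told apart.

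Cells make serine from a glycolytic intermediate. PHGDH oxidizes 3-phosphoglycerate, PSAT1 adds the amino group and PSPH removes the phosphate. Serine hydroxymethyltransferases then split serine into glycine and a carbon unit carried on tetrahydrofolate, SHMT1 mostly in the cytosol and SHMT2 in mitochondria. MTHFD2 and MTHFD1L pass that unit to formate inside mitochondria, and the cytosolic trifunctional enzyme MTHFD1 takes formate up again for purine and thymidylate synthesis. The alveolar epithelium of the lactating gland draws on serine and glycine for milk protein and for phospholipid, while proliferating cells draw on the folate units for DNA.

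Signals are given as log2 of the quantile-normalized intensity, so that a difference of 1 is a 2-fold difference. Levels of different probes are not compared, since probes differ in brightness for the same amount of RNA. The Zbtb7b probe lay between 9.90 and 10.42 on the WT arrays and did not stand well above background in KO, so that it was at least 81.5-fold lower in KO (adjusted p = 5.71e-09 from limma). All 8 genes of the milk protein list and all 10 of the luminal epithelium list were tested, and both lists are those of the labelled tissue. The share of probes well above background was 66.9% to 75.3% on WT arrays and 66.8% to 71.0% on KO arrays. The WT arrays filled 1 slide and the KO arrays another, so slide and genotype cannot be told apart.

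The stretches of 250 bases before the annotated starts of Mthfd2, Mthfd1 and Mthfd1l are shown first. Mthfd2 and Mthfd1 are the members that passed the test, and Mthfd1l is the member whose difference had the opposite sign. The sequences are from RefSeq (GRCm38.p6), 5′ to 3′ on the strand of the gene, and capitals mark the letters CCAAT or, for the other strand, ATTGG.

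Mthfd2, chr6:83317605-83317854, minus strand: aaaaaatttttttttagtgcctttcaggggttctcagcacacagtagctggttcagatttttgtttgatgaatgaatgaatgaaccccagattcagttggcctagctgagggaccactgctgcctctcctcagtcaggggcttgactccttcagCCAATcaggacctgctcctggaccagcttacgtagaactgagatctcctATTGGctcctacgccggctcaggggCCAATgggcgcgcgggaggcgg

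Mthfd1, chr12:76254982-76255231, plus strand: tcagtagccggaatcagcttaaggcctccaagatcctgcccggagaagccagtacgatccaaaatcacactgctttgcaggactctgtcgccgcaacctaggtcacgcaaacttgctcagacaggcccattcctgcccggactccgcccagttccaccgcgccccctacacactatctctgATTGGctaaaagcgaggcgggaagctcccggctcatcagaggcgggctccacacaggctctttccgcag

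Mthfd1l, chr10:3972825-3973074, plus strand: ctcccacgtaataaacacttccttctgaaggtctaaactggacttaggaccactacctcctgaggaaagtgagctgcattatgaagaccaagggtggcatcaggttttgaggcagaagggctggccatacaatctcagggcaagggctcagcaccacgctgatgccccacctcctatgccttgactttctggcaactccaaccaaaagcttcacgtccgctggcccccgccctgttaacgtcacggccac

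In windows of 300 bases that also hold the first 50 of the transcript, all 8 members matched, with 9 windows because Psat1 has an alternative start. The letters TGATGNAA, the core of the element bound by ATF4 with C/EBP factors, were in 0 of the 9 windows on either strand and in 3.97% of all 32851 windows. The E-box CACGTG, which MYC binds, was in 0 of 9 and in 7.15% of all windows. The cyclic AMP response element TGACGTCA was in 0 of 9 and in 1.79% of all windows. CCAAT, searched for after the sequences had been looked at, was in 6 of 9 windows and in 37.4% of all windows. Mthfd2 held it 3 times, at positions -96, -47 and -22 from the start, and Mthfd1 once, at -69. Phgdh, Psat1, Psph and Shmt1 held it as well, and Shmt2 and Mthfd1l did not. These matches describe letters and not bound sites.

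Among the 8 members, Mthfd2 and Mthfd1 fell in KO mammary glands, and no member rose. Of the 14137 genes tested, 8.96% were lower in KO with an adjusted p under 0.05 in limma and 7.53% were higher. The mean of 7 of the 8 members was lower in KO, against 52.4% of all genes, and the median difference over the members was -0.61 against -0.02 over all genes. An unadjusted p under 0.05 in either direction was given by 7 members, against 36.3% of all genes. These 7 include Mthfd1l, which had a higher mean in KO, and not Shmt2. The replicate number as a block pairs the arrays of WT and KO, a pairing that the labels do not state. With it, 4 members were called lower, Psat1 and Shmt1 in addition, against 10.8% of all genes. The number called without 1 array ranged from 1 to 4. Without KO3 only Mthfd2 was called, where 1.75% of all genes were called lower. Without KO4, Psat1 and Psph were called beside Mthfd1 and Mthfd2, where 8.90% of all genes were called lower.

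**Figure D1:**
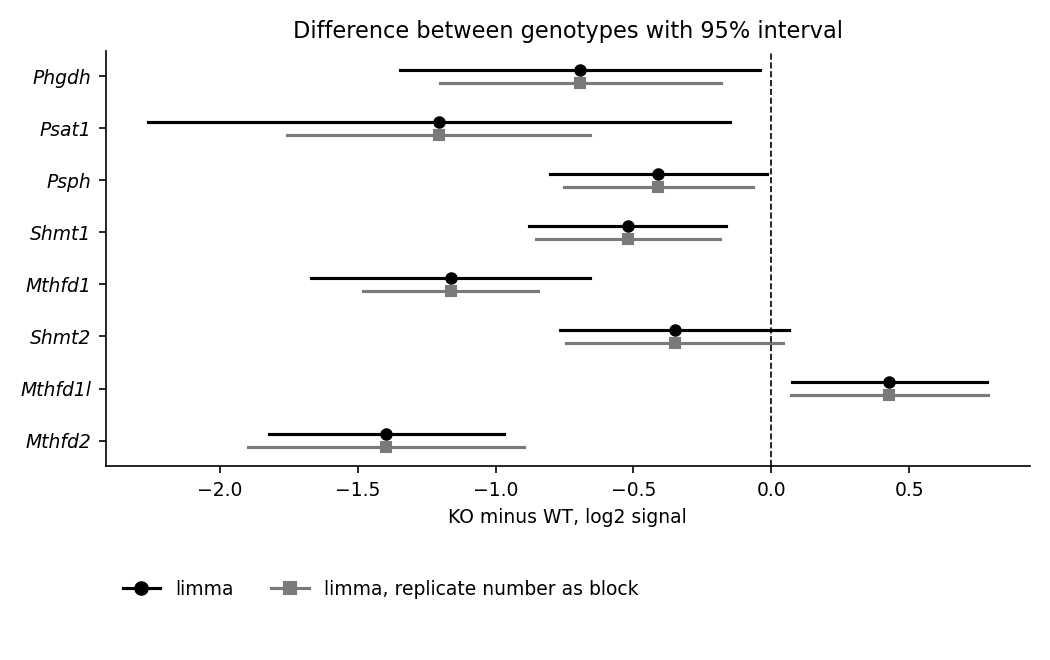
KO minus WT difference of log2 signal for the 8 genes, with the 95% interval from limma (black circles) and from the fit with the replicate number as a block (grey squares). In both fits the intervals of Phgdh, Psat1, Psph, Shmt1, Mthfd1 and Mthfd2 lie below 0, farthest for Mthfd2 (-1.82 to -0.97 in limma), that of Shmt2 spans 0 and that of Mthfd1l lies above 0.

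Phgdh, which encodes the first enzyme of serine synthesis, had a signal of 13.48, 14.07, 13.92 and 13.65 on WT1 to WT4 and of 12.32, 13.50, 12.89 and 13.62 on KO1 to KO4. KO1 and KO3 lay below all WT arrays, while KO2 and KO4 lay within the WT range. The difference was -0.69 (SE 0.29, n = 4 per genotype, 95% interval -1.35 to -0.04), a KO signal of 61.8% of WT, and did not pass the test (adjusted p = 0.120 from limma). In each of the 4 numbered pairs the KO array was the lower one.

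Psat1, the aminotransferase of the pathway, spread the most. Its signal was 10.16, 11.47, 10.87 and 11.13 in WT and 8.66, 10.18, 9.22 and 10.74 in KO. KO1 and KO3 were again the low arrays, while KO4 lay among the WT arrays and KO2 just above WT1, the lowest of them. The difference was -1.21 (SE 0.46, 95% interval -2.26 to -0.15, adjusted p = 0.101 from limma). The spread was shared by arrays of the same number, and the fit with the replicate block gave an SE of 0.22 and an adjusted p of 0.0241 from limma, so that Psat1 was called lower in the paired fit and not in the unpaired one.

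Psph encodes the phosphatase that releases serine. It had a signal of 9.67, 10.20, 10.07 and 10.19 in WT and of 9.51, 9.50, 9.46 and 10.03 in KO. The first 3 KO arrays were nearly level below the WT range, and KO4 stood inside it. The difference of -0.41 (SE 0.17, 95% interval -0.80 to -0.02) did not pass the test (adjusted p = 0.126, and 0.0853 with the block, from limma). The interval of each of the 3 synthesis genes ended just below 0, and in all 3 the KO array was lower in 4 of 4 pairs.

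**Figure D2:**
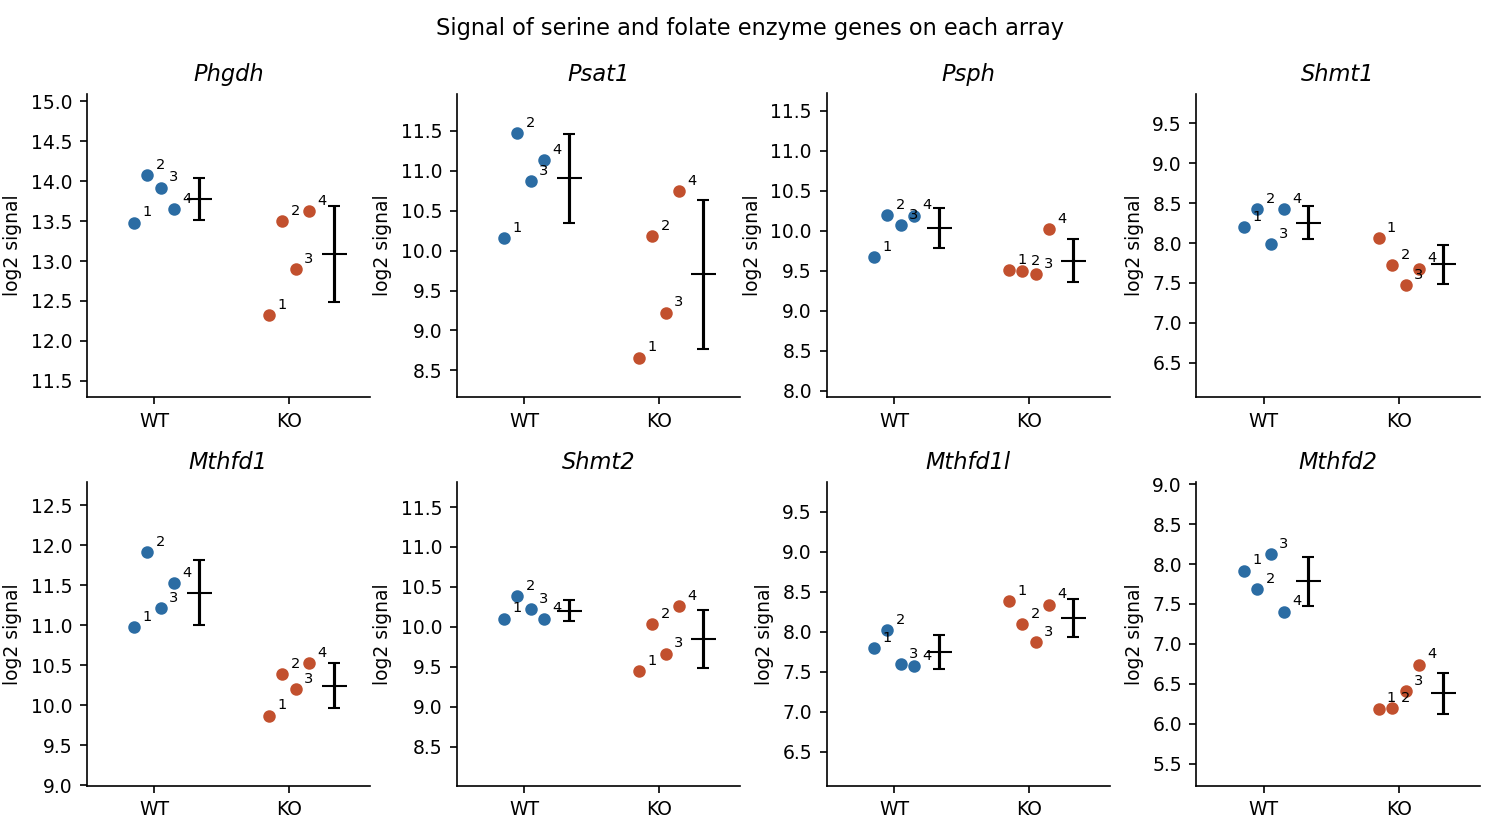
Log2 quantile-normalized signal of each gene on the 4 WT arrays (blue) and the 4 KO arrays (red), numbered by replicate, with the mean and SD of each genotype as black bars. KO points lie below all WT points for Mthfd1 and Mthfd2, as for 12.9% of all genes tested, and overlap with them for the 6 other genes.

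The hydroxymethyltransferase genes stand where serine enters the folate cycle. The cytosolic Shmt1 had a signal of 8.20, 8.42, 7.98 and 8.42 in WT and of 8.07, 7.72, 7.48 and 7.68 in KO. Only KO1 reached the WT range. The difference was -0.52 (SE 0.16, 95% interval -0.88 to -0.16), with an adjusted p of 0.0539 from limma and of 0.0480 with the replicate block, on either side of the threshold. The mitochondrial Shmt2 had a signal of 10.10, 10.38, 10.22 and 10.10 in WT and of 9.44, 10.03, 9.67 and 10.26 in KO. KO4 lay above its WT partner, and the 3 other KO arrays lay below all WT arrays. The difference of Shmt2 was -0.35 (SE 0.18, 95% interval -0.77 to 0.06, adjusted p = 0.197 from limma).

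Mthfd1, the cytosolic enzyme that turns formate into the folate forms used for purines and thymidylate, fell 2.24-fold in KO mammary glands. Its signal was 10.98, 11.91, 11.21 and 11.53 in WT and 9.87, 10.38, 10.20 and 10.52 in KO. The highest KO array lay below the lowest WT array, as it did for 12.9% of all genes. The difference was -1.16 (SE 0.22, 95% interval -1.67 to -0.66, adjusted p = 0.0171 from limma). Without KO3 the value was -1.15 and the adjusted p 0.0535.

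Mthfd2, the mitochondrial dehydrogenase and cyclohydrolase, fell 2.63-fold. The WT arrays had 7.92, 7.68, 8.12 and 7.40 and the KO arrays 6.19, 6.20, 6.41 and 6.74. All KO arrays lay below all WT arrays, as for 12.9% of all genes, so that KO was lower in 4 of 4 pairs under any pairing. The difference was -1.40 (SE 0.19, 95% interval -1.82 to -0.97, adjusted p = 0.00699, and 0.0163 with the block, from limma), which leaves 38.0% of the WT signal. It kept its call without any 1 array, with adjusted p between 0.00812 and 0.0288.

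Mthfd1l, which encodes the mitochondrial formate-producing ligase, was the only member with a higher mean in KO. The signal was 7.80, 8.02, 7.60 and 7.57 in WT and 8.39, 8.10, 7.87 and 8.34 in KO. KO3 lay within the WT range and the other KO arrays lay above it. The difference was 0.43 (SE 0.15, 95% interval 0.07 to 0.78), a 1.34-fold higher signal that did not pass the test (adjusted p = 0.0876 from limma). KO was the higher array in each of the 4 pairs.

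The other probes of the genes were mostly alike. The 3 Phgdh probes gave -0.81, -0.69 and -0.88, and the 2 Psph probes -0.45 and -0.41. The second Mthfd1 probe gave -1.24 and did not overlap between genotypes either (adjusted p = 0.0168 over 20838 probes, limma). The Shmt1 probes disagreed in size, with -0.52 for the brighter and -0.16 (SE 0.15, adjusted p = 0.469) for the dimmer. Psat1, Shmt2, Mthfd1l and Mthfd2 had 1 probe each.

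The arrays of a genotype were ordered alike for several members. KO4 was the highest KO array for 6 of the 8 genes, KO1 the lowest for 5 and KO3 the lowest for the remaining 3. Among WT arrays, WT2 was highest for 6 genes and WT1 lowest for 5. The median distance of the 8 genes from their WT means was -1.11 on KO1, -0.53 on KO2, -0.83 on KO3 and -0.16 on KO4. KO4 was below the WT mean for 6 of the 8 genes and the other KO arrays for 7. For Mthfd2 the KO array nearest to the WT mean was KO4, at -1.04.

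**Figure D3:**
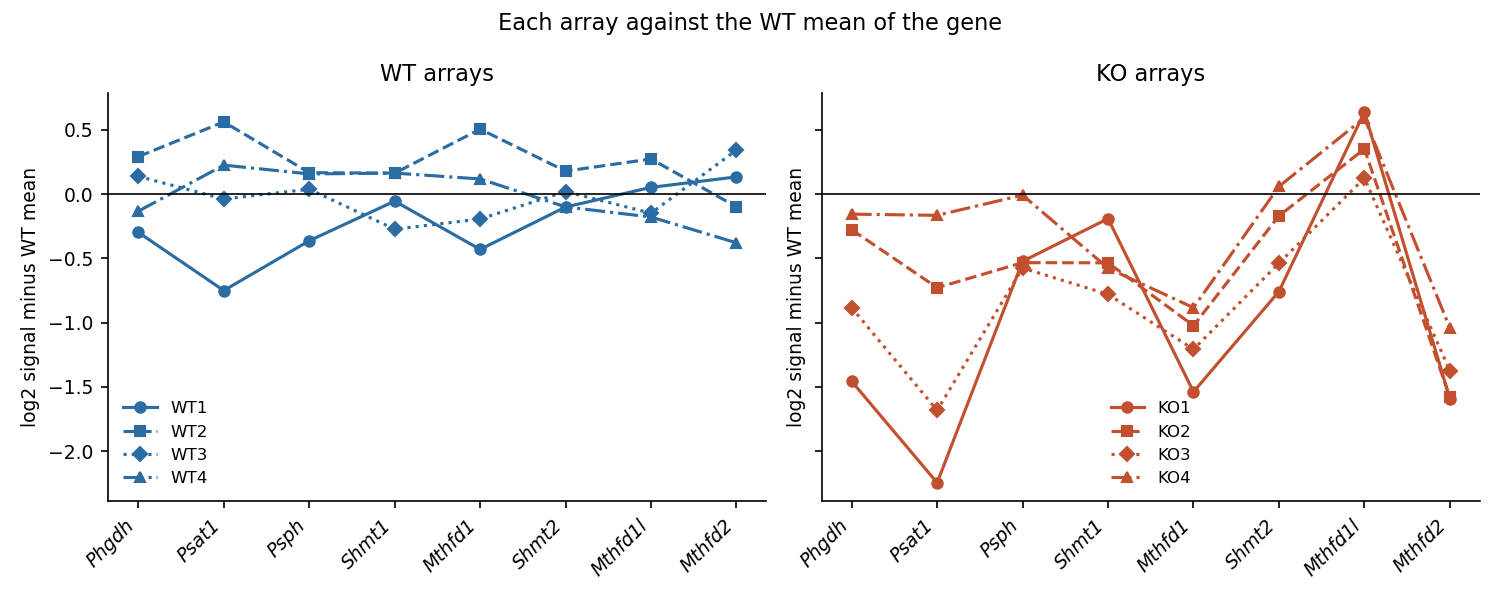
Log2 signal of each gene minus its WT mean on the WT arrays (left) and the KO arrays (right). Each line joins the 8 genes of 1 array and carries no order between genes. KO1 and KO3 are lowest at Psat1 (-2.25 and -1.68), where KO4 is at -0.16, while all 4 KO arrays are at -1.04 or lower at Mthfd2.

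With the mean of each genotype subtracted, the signals of Phgdh and Shmt2 were correlated at r = 0.97 over the 8 arrays, those of Phgdh and Psat1 at 0.93, Psat1 and Shmt2 at 0.93, Psat1 and Mthfd1 at 0.87 and Psat1 and Psph at 0.80. Of the 28 pairs of members, 23 were above 0 and 8 were above 0.7, with a median of 0.25. All 8 lay among Phgdh, Psat1, Psph, Shmt2 and Mthfd1. Mthfd2 was at most at 0.43, with Shmt2, and was at -0.68 with Shmt1, the lowest of all pairs. The points share their arrays, RNA quality and normalization, and with 8 arrays these values are a description.

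The mitochondrial and cytosolic enzymes of a step were set against each other within each array, and WT and KO arrays were then compared on each of the 3 differences with a permutation test, exact and two-sided. Its 70 relabelings allow no p below 0.0286. A difference between probes has no meaning as a level, so only its shift between genotypes is read. Mthfd1l minus Mthfd1 was -3.18, -3.89, -3.62 and -3.96 in WT and -1.48, -2.29, -2.33 and -2.18 in KO. All KO arrays lay above all WT arrays, with a shift of 1.59 (SE 0.27, exact p = 0.0286, 0.0857 adjusted over the 3 pairs). Since the other pairs had large p, the adjusted p could not be lower. The shift is made of the differences of Mthfd1l (0.43) and Mthfd1 (-1.16) given above and is no separate result. In the paired form of the exact test, the sign-flip test over 4 pairs, the p was 0.125, the smallest it can give. Mthfd2 minus Mthfd1 shifted by -0.23 (SE 0.34, exact p = 0.457, adjusted p = 0.571) and Shmt2 minus Shmt1 by 0.17 (SE 0.28, exact p = 0.571). In both, WT and KO arrays overlapped.

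**Figure D4:**
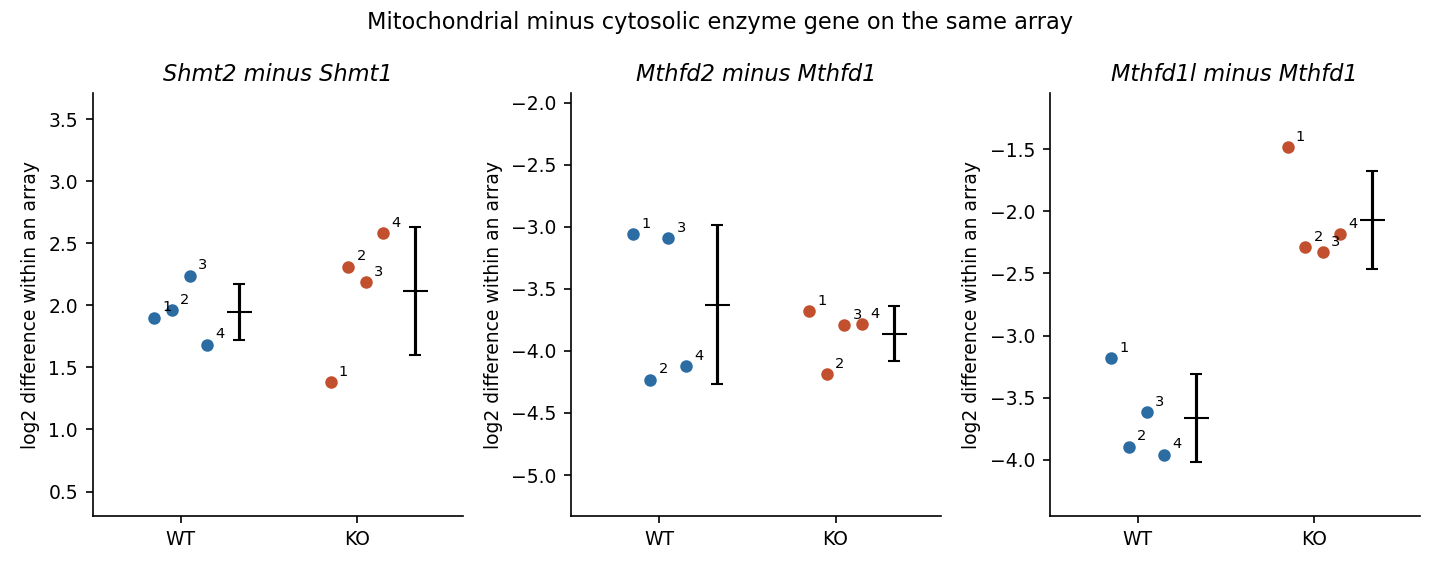
Log2 signal of the mitochondrial gene minus that of the cytosolic gene on the same array, for 3 pairs, in WT (blue) and KO (red), with replicate numbers and the mean and SD as bars. KO arrays lie above WT arrays for Mthfd1l minus Mthfd1 and overlap with them for the other pairs.

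The genes around these enzymes were taken from 10 lists of 81 genes in all beside Zbtb7b. Of the 73 tested, 50 had a lower mean in KO and 23 a higher one. At an adjusted p under 0.05 in limma, 12 were called lower and 1 higher (8.96% and 7.53% of all genes), and under the replicate block 20 were called lower and 1 higher (10.8% and 8.75%). The 7 folate carrier and polyglutamation genes went both ways, 5 with a lower and 2 with a higher mean in KO. Of these, Slc46a1, the proton-coupled folate transporter, fell. Its signal of 11.29, 11.40, 11.53 and 11.81 in WT and of 10.42, 10.21, 10.18 and 10.55 in KO did not overlap, with a difference of -1.17 (SE 0.14, adjusted p = 0.00493 from limma). It kept its call without any 1 array. Fpgs, which adds the glutamate tail that holds folate in the cell, had -0.52 (SE 0.16, adjusted p = 0.0598). The folate receptor gene Folr1 had -0.60 and passed only with the replicate block (adjusted p = 0.0287). The 2 with a higher mean were Slc19a1, the reduced folate carrier, at 0.50 (SE 0.21, adjusted p = 0.120), and Ggh, which removes the glutamate tail, at 0.23 (SE 0.10, adjusted p = 0.14). Slc25a32 and Folr2 had -0.12 and -0.23.

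The 5 genes that use folate units were all lower in KO on average, with a median of -0.65, and 2 passed the test. Gart and Atic, both of purine synthesis, fell. Gart had 8.55, 8.71, 8.60 and 8.46 in WT and 7.92, 8.05, 8.12 and 7.94 in KO, a difference of -0.57 (SE 0.10, adjusted p = 0.0135). Atic had 9.75, 10.34, 9.98 and 9.53 in WT and a mean of 9.06 (SD 0.06, n = 4) in KO, a difference of -0.84 (SE 0.17, adjusted p = 0.0186). Neither gene overlapped between genotypes, and Atic lost its call without KO1 or without KO3 (adjusted p = 0.0526 and 0.0539). With the block, Mtrr (-0.65), which reactivates methionine synthase, and Tyms (-1.12), thymidylate synthase, passed as well.

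Of 7 other folate interconversion genes, 1 fell and the median was -0.00. This was Aldh1l2, the mitochondrial 10-formyltetrahydrofolate dehydrogenase, at -0.73 (SE 0.17, adjusted p = 0.0289), and it lost its call without WT2, WT3, KO1, KO2 or KO3 (highest adjusted p = 0.0820). Mthfs, which recycles 5-formyltetrahydrofolate, had 0.41 (SE 0.15, adjusted p = 0.0932), and Mthfd2l, the close relative of Mthfd2, had 0.07 (SE 0.16, adjusted p = 0.783). None of the 3 genes tested of the glycine cleavage system was called in limma or by the methods' t-test, 1 of them having an unadjusted p under 0.05. These were Gldc, the decarboxylase, at -0.99 (SE 0.38, adjusted p = 0.104, and 0.0288 with the block), Gcsh at -0.56 and Dld at -0.33. None of the 5 methionine cycle genes was called by either tool, and 1, Ahcy, had an unadjusted p under 0.05. Gnmt, which methylates glycine, had -1.53 (SE 0.71, adjusted p = 0.157) and passed with the block (adjusted p = 0.0211).

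Among 9 genes tested that use serine, Serinc1, named for serine incorporation into membrane lipids, rose by 0.44 (SE 0.09, adjusted p = 0.0196), and all its KO arrays lay above all WT arrays. Cth, the gene of cystathionine gamma-lyase, had -1.41 (adjusted p = 0.108) and passed with the block (adjusted p = 0.0178). Ptdss2, which exchanges serine into phosphatidylserine, had -0.48 (SE 0.15, adjusted p = 0.0554). Of 7 serine and glycine carriers, the neutral amino acid transporter gene Slc38a2 fell by 0.75 (SE 0.22, adjusted p = 0.0487). Serinc1 lost its call without WT2, WT3, KO2 or KO3 (highest adjusted p = 0.0628). Slc38a2 lost its call without each array but KO4 (highest adjusted p = 0.107). Slc7a10, which carries small neutral amino acids, had 0.47 (SE 0.15, adjusted p = 0.0651).

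Of the regulator list, which also holds Zbtb7b, none of the 5 other genes passed in limma or by the methods' t-test, and none had an unadjusted p under 0.05. Atf4 had -0.25 (SE 0.15, adjusted p = 0.260) and Myc 0.30 (SE 0.13, adjusted p = 0.140). Of 14 other target genes of ATF4, 3 fell and 11 did not pass, and the median was -0.09. The 3 were Aldh18a1, of proline synthesis, at -1.22 (SE 0.31, adjusted p = 0.0343), the large neutral amino acid transporter gene Slc7a5 at -0.85 (SE 0.22, adjusted p = 0.0376) and the lipoprotein receptor gene Vldlr at -0.52 (SE 0.14, adjusted p = 0.0423). None of the 14 was called by the methods' t-test, and each of the 3 lost its call without WT2, WT3, KO1 or KO3 and without at least 2 other arrays (highest adjusted p = 0.0937, 0.102 and 0.113). Asns, asparagine synthetase, had -0.62 (adjusted p = 0.228) and passed with the block (adjusted p = 0.0445). Trib3 and Ddit3, which rise in the stress response, had 0.49 and 0.24 (adjusted p = 0.174 and 0.598).

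**Figure D5:**
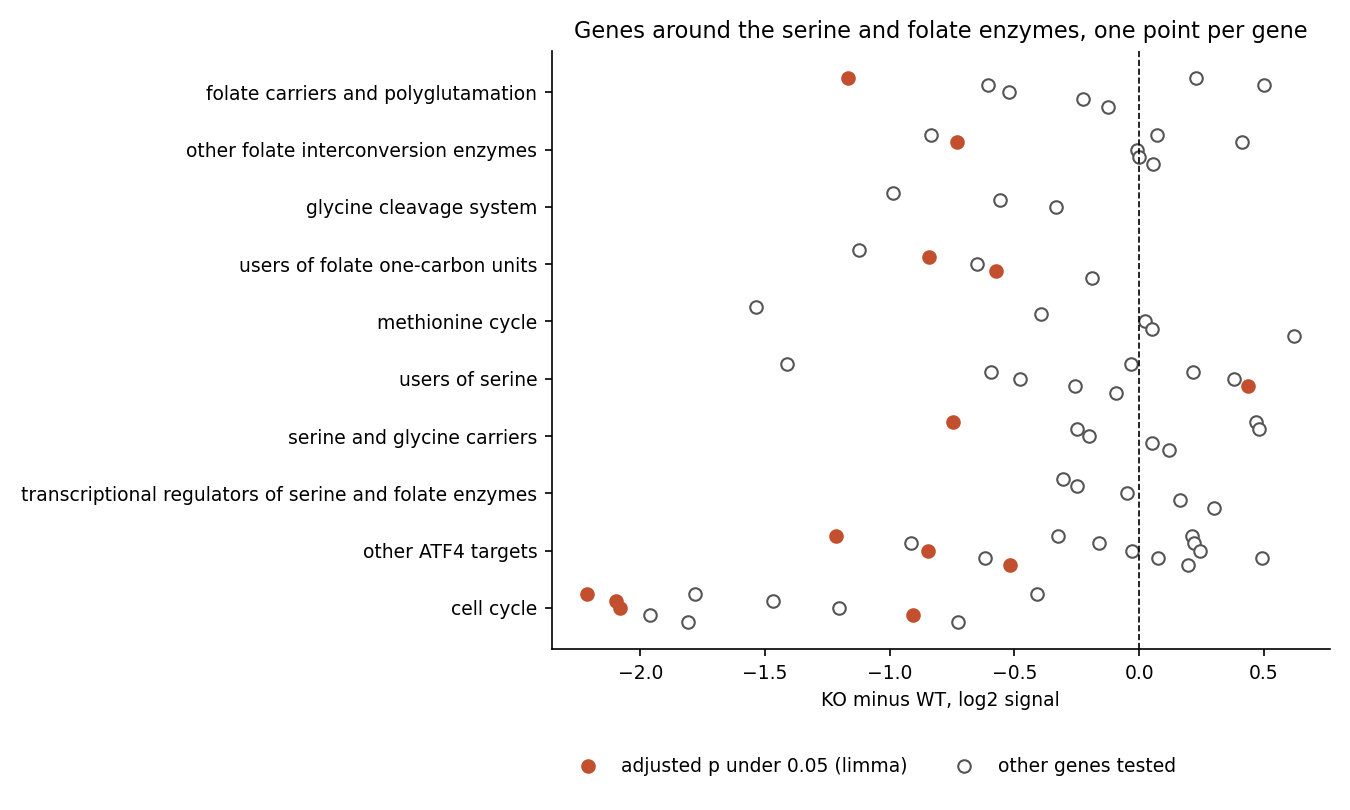
KO minus WT difference of log2 signal for the genes of 10 lists around serine and folate metabolism, 1 point per gene tested and without Zbtb7b, with filled points for an adjusted p under 0.05 in limma. The 5 users of folate units and the 11 cell cycle genes all lie below 0, and the other lists with over 3 genes lie on both sides.

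Some genes of proliferating cells fell as well. All 11 cell cycle genes tested had a lower mean in KO, with a median of -1.78, and 4 passed the test in limma (1 by the methods' t-test), among them Ccnb1 at -2.21 (SE 0.43, adjusted p = 0.0183), Mki67 at -2.10 (SE 0.57, adjusted p = 0.0403), Top2a at -2.08 (SE 0.59, adjusted p = 0.0449) and Pcna at -0.91 (SE 0.21, adjusted p = 0.0288). Each of the 4 lost its call without WT2, without KO1 and without KO3 (highest adjusted p = 0.0556, 0.109, 0.116 and 0.0773 in that order), and all but Ccnb1 also without other arrays. Cdk1 (-1.81) passed with the block (adjusted p = 0.0450). The mean signal of the list ranged from 8.63 to 10.64 in WT and from 8.02 to 8.34 in KO. With genotype means subtracted, its correlation over the 8 arrays was 0.65 with Mthfd1, 0.69 with Psph, 0.54 with Shmt1, 0.45 with Psat1, 0.13 with Phgdh, 0.10 with Shmt2, 0.10 with Mthfd1l and -0.57 with Mthfd2. The part of cell cycle genes in the differences of the folate enzymes was not tested.

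Lists of cell types also differed between the same arrays. The luminal epithelium list ranged from 12.37 to 12.80 in WT and from 13.08 to 13.28 in KO, with 5 of 10 genes called higher. These were Cdh1, Cldn4, Cldn3, Krt18 and Epcam, with Cldn4 farthest at 2.51. Krt8 and Krt19 had higher means in KO without a call. Elf5, Prlr and Esr1 had lower means in KO, at -0.35, -0.20 and -0.13. Of these, Elf5 had an unadjusted p of 0.0331 (adjusted p = 0.107 from limma). The neutrophil list ranged from 7.16 to 8.07 in WT and from 9.27 to 10.43 in KO, with 3 of 7 genes tested called higher. Elane, the neutrophil elastase gene, was well above background on 0 arrays. The called genes were Camp (4.74), Ngp (3.96) and Ltf (1.31). Ltf had a WT mean of 16.27, where S100a8, the next highest of the list, had 10.83. Which cells the Ltf RNA came from was not tested, so its call is not read as one of neutrophils. Camp and Ngp had WT means of 1.95 and 2.46, near the 1.59 of the Zbtb7b probe in KO. Their differences, the largest of the list, therefore have no sure size. With such WT signals both may have passed the filter through KO alone, so their calls are no separate support. Both are part of the list mean, so the gap between its WT and KO ranges has no sure size either. S100a9, Retnlg, S100a8 and Csf3r were not called, at 2.19, 1.09, 0.49 and 0.08. The fibroblast list ranged from 13.86 to 14.11 in WT and from 14.14 to 14.74 in KO, with 1 of 6 genes called higher. The other lists overlapped between genotypes. The adipocyte list had 2 of 8 genes called higher, Cfd and Plin1, with a range of 12.98 to 13.62 in WT and of 13.44 to 13.68 in KO. Lep and Pparg of that list had lower means in KO, at -0.73 and -0.05, and were not called. The T cell list had 2 of 7 called lower, Cd3e and Cd4, with 6.14 to 7.27 in WT and 6.18 to 6.48 in KO. The B cell list had 1 of 5 called higher, Cd79b, with 6.78 to 7.43 in WT and 6.97 to 7.35 in KO. Its partner Cd79a went the other way, at -0.72 (adjusted p = 0.0511 from limma). No gene of the basal epithelium, macrophage and endothelium lists was called in limma or by the methods' t-test, and 1, 0 and 1 of their genes had an unadjusted p under 0.05. The milk protein list had 17.06 to 17.39 in WT and 16.93 to 17.47 in KO, and none of its 8 genes was called in limma or by the methods' t-test or had an unadjusted p under 0.05. With genotype means subtracted, the milk protein list was correlated at 0.89 with Psph, 0.88 with Psat1, 0.76 with Shmt2, 0.71 with Mthfd1, 0.69 with Phgdh, 0.33 with Mthfd1l, 0.24 with Shmt1 and 0.04 with Mthfd2, as a description over 8 arrays. The luminal epithelium list ran the other way, at -0.87 with Mthfd1, -0.73 with Psph, -0.68 with Psat1, -0.59 with Shmt2 and with Mthfd1l, -0.54 with Phgdh and -0.31 with Shmt1, and was at 0.00 with Mthfd2. The neutrophil list was at -0.70 with Phgdh, -0.65 with Mthfd1 and Shmt2, -0.55 with Psat1, -0.33 with Mthfd2, -0.20 with Psph, 0.06 with Mthfd1l and 0.51 with Shmt1. The part of these cell types in the results was not tested.

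The genes most like Mthfd2 over the 8 arrays, among 14135 others with a spread, were Gdap2 (r = 0.987), Sec24c (0.985), Zmat3 (0.984), Polr2j (0.981) and Eif2ak3 (0.981), the last being the gene of the stress kinase PERK. Those most like Phgdh were Gm8096 (0.995), Iars (0.980), Hmgcs1 (0.978), Shmt2 (0.977) and Abhd11 (0.972). Gm8096 is annotated as a transcribed pseudogene, and whether its probe also binds RNA of another gene was not tested. Iars encodes an aminoacyl-tRNA synthetase and Hmgcs1 an enzyme of sterol synthesis. A correlation over 0.95 was found with 306 genes for Mthfd1, 105 for Psph, 88 for Psat1, 61 for Mthfd2, 18 for Phgdh, 16 for Shmt2, 10 for Shmt1 and 0 for Mthfd1l. These correlations contain the difference between genotypes and carry no test.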

How the data were processed

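RNA of 8 mammary glands was measured on 8 arrays, 4 WT and 4 KO by their labels. The authors deposited the scanner output of Agilent Feature Extraction 10.7 (named in the submitters' processing notes), in which the processed intensity of each spot is background-subtracted on a linear scale and is not normalized between arrays. They also deposited a table of log2 values, quantile-normalized in GeneSpring per the methods, with a column median of 6.33. Its columns correlated above 0.99 with the log2 quantile-normalized values used here for the same array. It served as an alternative, though a nearly identical one. For the values given here, log2 processed intensities were quantile-normalized between arrays with limma 3.58.1 in R 4.3.3, without control spots and outlier flags (64 to 100 spots per array). Probes were kept if all 4 arrays of either genotype showed them well above background, and the brightest probe stood for a gene. Probes were named through their accession, 27479 of 41174 matching a symbol of the RefSeq table. Tests were limma with Benjamini-Hochberg adjustment over 14137 genes (threshold 0.05) and, for the within-array differences, an exact permutation test. The number of arrays limits the precision. The dams are separate animals.

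Replicate numbers are shared by the genotypes. The labels do not state that arrays of the same number belong together. Deviations from the genotype means correlated between arrays of the same number at 0.22, 0.16, 0.30 and 0.28. The average between others, -0.08, follows from these values once genotype means are subtracted and is no separate support. The block and the counts of pairs thus rest on a pairing read from these same data. The blocked value is given where it changes a call. The methods' t-test is Student's two-sided test on the same values with the same adjustment.

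The genes, lists and tests were chosen with earlier results of these data known. Named are all 8 members, Zbtb7b, the called genes of each list and otherwise up to 2 with the smallest p, and the 5 genes most correlated with Mthfd2 and with Phgdh. Folr1, Mtrr, Tyms, Gcsh, Mthfd2l, Cth, Cdk1, Atf4, Asns, Trib3, Ddit3, Slc19a1, Ggh, Slc25a32, Folr2, Cfd, Plin1, Cd3e, Cd4, Cd79b and Elane are outside that rule and were named after their values were seen. So were Cdh1, Cldn4, Cldn3, Krt18, Epcam, Krt8, Krt19, Elf5, Prlr, Esr1, Camp, Ngp, Ltf, S100a9, Retnlg, S100a8, Csf3r, Lep, Pparg and Cd79a. Alternatives were 75th percentile scaling, normexp background correction with an offset of 50, the table of the authors, no filter or a filter on all 8 arrays, the mean of the probes of a gene, unmatched probes kept, the block, the t-test and the loss of each array. The normexp alternative used median spot signals, since mean signals are not in the scanner output used here. The code was checked on simulated data. Rrm2, Amt and Pycr1 had no matched probe, and Bhmt, Bhmt2, Mat1a, Ftcd and Sds did not pass the filter.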

Additional observations from a re-analysis of the deposited data

Results flagged for a closer look

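A single array stood apart from the others of its genotype for 4 of the 62 sets of 4 arrays examined, where chance gives about 1 in 20, and in all 4 it was KO4. Psph on KO4 was at 10.03, while the nearest other KO array was at 9.51 and the lowest at 9.46. Fpgs on KO4 was at 11.90, with the nearest at 11.46. Ahcy on KO4 was at 6.92, with the nearest at 6.44. Myc on KO4 was at 11.63, with the nearest at 11.45. Of the 16 sets of the serine and folate genes themselves, Psph in KO was the only 1 that stood apart.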

How the results depend on the processing

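Each member kept its direction under all 17 alternatives. Mthfd2 kept its call in all 17 (adjusted p between 0.00673 and 0.0288), with the smallest difference, -0.93, under normexp. Mthfd1 lost its call only without KO3. With the replicate block 4 members were called, Psat1 (-1.21, adjusted p = 0.0241) and Shmt1 (-0.52, adjusted p = 0.0480) in addition, and 20 related genes were called lower. Without 1 array, the number of members called ranged from 1 to 4 and the number with a lower mean was 7 throughout. The differences then ranged from -0.87 to -0.44 for Phgdh, -1.55 to -0.86 for Psat1, -0.54 to -0.35 for Psph, -0.63 to -0.43 for Shmt1, -0.49 to -0.22 for Shmt2, -1.31 to -0.99 for Mthfd1, 0.36 to 0.53 for Mthfd1l and -1.52 to -1.28 for Mthfd2. Genes called over the whole array ranged from 519 to 3076 (249 to 1689 lower, 270 to 1387 higher), and related genes from 2 to 19 lower and from 0 to 2 higher. The t-test called 1389 genes (796 lower, 593 higher), 2 members and 4 related genes lower. Without a filter, 6 related genes were called lower and 2 higher. Normexp gave 3 related genes higher, and keeping unmatched probes gave 1651 higher in all. Mthfd2 minus Mthfd1 turned to 0.19 under normexp (exact p = 0.514) and Shmt2 minus Shmt1 to -0.0099 with the mean of probes. Without 1 array the 3 within-array shifts ranged from 0.01 to 0.41 for Shmt2 minus Shmt1, -0.43 to -0.05 for Mthfd2 minus Mthfd1 and 1.39 to 1.75 for Mthfd1l minus Mthfd1. The causes of these shifts were not tested. A slide block could not be fitted, since each slide holds 1 genotype. All 13 probes of the members were well above background on all 8 arrays. What limits the number of calls was not tested.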
